A study of Mus musculus with 12 samples.

Results

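The genes of red cell differentiation and haem synthesis were followed in mouse spleen as 36 named genes outside the globins, chosen by symbol from a table of 19376 rows. Of these, 35 had a row and all 35 passed the filter on low counts that left 15079 genes for testing, while Ahsp is not analysed here. They were grouped by role into 6 transcription factors, 2 receptors, 7 haem synthesis enzymes, 3 mitochondrial transporters with the membrane protein Tspo2, 4 proteins of the membrane skeleton and anion exchange, 6 blood group and other surface proteins, and 6 genes of late maturation and red cell enzymes. RNA was sequenced from 12 spleen libraries in 4 groups of 3. The mice had a single dose of the alkylating drug busulfan at 40 mg/kg followed by alginate oligosaccharides (AOS, short pieces of alginate, a sugar polymer of brown seaweed) at 10 mg/kg for 5 weeks, or busulfan alone, or AOS alone, or no treatment (control). The code on the libraries of busulfan alone is 1 letter longer than the one the study's design text explains, and these were taken to have had no AOS. The strain is labelled IRC, no age or genotype is given, and no label ties each library to its own animal, so the spread that p-values rest on could be partly technical.

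The red pulp of the adult mouse spleen holds red cell precursors beside the bone marrow, and this spleen pool is known to grow when red cells are in demand. Erythropoietin acts on its receptor Epor on early precursors, and the factors Gata1, Tal1 and Klf1 switch on the red cell programme of globins, haem enzymes, membrane skeleton and blood group proteins. Haem is begun in the mitochondrion by Alas2 from glycine and succinyl-CoA, carried through cytosolic steps by Alad, Uros and Urod, and finished in the mitochondrion by Cpox, Ppox and Fech, which puts in the iron. Early precursors divide and late ones stop dividing, lose the nucleus and keep a shrinking set of transcripts, so that early and late genes can move apart.

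Library totals ran from 15051300 to 16241884 counts. All 10 erythroid marker genes of a separate list were present in every library. Levels are given as CPM, counts scaled to the size of the library. Transcripts of exocrine pancreas, a tissue beside the spleen, summed over 10 genes to 1273, 17750 and 2246 CPM in AOS 1, 2 and 3. They summed to 1069, 177.9 and 81.1 CPM in busulfan + AOS, 417.5, 71.0 and 21.3 CPM in busulfan, and 15.3, 94.1 and 19.2 CPM in controls. Control 1 had the most fat cell transcripts, 246 CPM summed over 9 genes, while the remaining libraries had 23.8 to 56.9 CPM. Counts of calls are therefore also given without AOS 2 and control 1, which keeps the pancreas transcripts of AOS 1 and AOS 3.

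The start regions of 3 members that recur in the results below are shown, and no result below rests on these regions. The members are Bpgm, the single member that passed the test, Alas2 and Klf1. The ratio of Alas2 to Klf1 set busulfan + AOS apart, in a pair picked after the values were seen. Each sequence, like every window counted here, is the 250 bases before an annotated start, here on the plus strand, from RefSeq on GRCm38.p6, and lies at chr6:34476106-34476355 for Bpgm, chrX:150547167-150547416 for Alas2 and chr8:84901732-84901981 for Klf1. Capitals mark matches on either strand to the GATA motif (AGATAA, also TGATAA, also AGATAG, also TGATAG), the KLF motif (CCNCNCCC) and the NFE2 motif (TGAGTCA).
Bpgm: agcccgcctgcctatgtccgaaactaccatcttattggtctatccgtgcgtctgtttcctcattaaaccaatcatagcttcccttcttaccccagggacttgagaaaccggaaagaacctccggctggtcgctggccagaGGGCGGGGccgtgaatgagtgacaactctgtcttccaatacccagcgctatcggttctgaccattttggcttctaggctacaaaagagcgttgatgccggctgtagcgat
Alas2: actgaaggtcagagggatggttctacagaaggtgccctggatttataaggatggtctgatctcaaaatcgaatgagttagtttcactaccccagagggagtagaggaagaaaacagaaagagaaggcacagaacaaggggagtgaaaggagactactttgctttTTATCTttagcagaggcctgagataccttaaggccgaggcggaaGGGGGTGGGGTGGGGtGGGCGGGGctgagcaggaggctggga
Klf1: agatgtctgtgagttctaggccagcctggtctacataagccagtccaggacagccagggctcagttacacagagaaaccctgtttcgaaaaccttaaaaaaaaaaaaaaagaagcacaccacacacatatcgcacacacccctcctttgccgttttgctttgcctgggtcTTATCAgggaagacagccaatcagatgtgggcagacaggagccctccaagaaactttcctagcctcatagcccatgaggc
The Alas2 window held a GATA match whose first base is at -86 from the start and KLF matches from -42, -40, -35 and -26, the first 3 of which overlap one another. The Klf1 window held a GATA match at -80, and the Bpgm window a KLF match at -110 with no GATA match. Of the 36 members, 26 had a start region in the table, and 15 of them had a GATA match, 14 a KLF match and 2 an NFE2 match in at least 1 listed start. By windows, a GATA match was in 50% of the 30 windows of members and in 26.5% of all 32851 windows of the same length, a KLF match in 53.3% and 45.9%, and an NFE2 match in 6.67% and 4.46%. These matches are a description of the letters and not of binding.

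A further pair of members carries the iron-responsive element, the RNA hairpin through which iron regulatory proteins are known to hold back translation of Alas2 and to protect Tfrc mRNA when iron is short. A search of the untranslated regions of GENCODE M21 (GRCm38) for a C, 5 bases, the loop CAGTGN and 5 bases pairing with the first 5, with G and T allowed to pair, matched 159 of 21877 protein-coding genes, or 0.727%. Among the members it matched Alas2 at chrX:150547464-150547480 in the 5′ UTR, and Tfrc at chr16:32631225-32631241, chr16:32631604-32631620, chr16:32631669-32631685 and chr16:32631716-32631732 in the 3′ UTR, all on the plus strand. Capitals mark the loop.
Alas2 5′ UTR: cgtcctCAGTGCagggc
Tfrc 3′ UTR, site 1: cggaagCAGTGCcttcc
Tfrc 3′ UTR, site 2: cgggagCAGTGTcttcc
Tfrc 3′ UTR, site 3: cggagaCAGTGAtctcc
Tfrc 3′ UTR, site 4: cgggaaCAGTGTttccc

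Levels between genes were compared per transcript length, as FPKM averaged over the 12 libraries. Car2, the carbonic anhydrase that speeds carbon dioxide transport, was highest at 1375 FPKM, followed by Alas2 at 679 FPKM and Slc4a1, the chloride-bicarbonate exchanger band 3, at 533 FPKM. Slc25a37, the mitochondrial iron importer mitoferrin, averaged 346 FPKM and Car1 345 FPKM. At the other end stood Gfi1b, a repressor of early precursors, at 41.3 FPKM, Tspo2, a membrane protein of erythroblasts, at 26.4 FPKM, and Trim58, a ubiquitin ligase of late erythroblasts, at 9.58 FPKM. Among haem enzymes the order was Alas2, Alad at 328 FPKM, Fech at 297 FPKM, Urod at 135.5 FPKM, Cpox at 122 FPKM, Ppox at 71.9 FPKM and Uros at 69.5 FPKM. The neighbours Alad and Fech overlapped in range, at 243 to 421 and 185 to 454 FPKM, as did Ppox and Uros, at 55.1 to 86.6 and 49.8 to 90.7 FPKM.

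The members moved together from library to library. Summed over the 35 genes, busulfan + AOS libraries held 16660, 21180 and 14150 CPM, busulfan libraries 18480, 18700 and 20450 CPM, AOS libraries 10450, 15530 and 15380 CPM, and control libraries 14610, 13040 and 19400 CPM. AOS 1 was the lowest library for all 35 members. The highest was busulfan 3 for 13 members, busulfan + AOS 2 for 13, control 3 for 5, busulfan 1 for 3 and busulfan 2 for 1. The 3 busulfan libraries were alike, while the other groups spread more widely, with control 3, AOS 1 and busulfan + AOS 2 farthest from the rest of their groups. In bulk tissue, fewer cells of a type and less RNA per cell cannot be told apart.

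**Figure D1:**
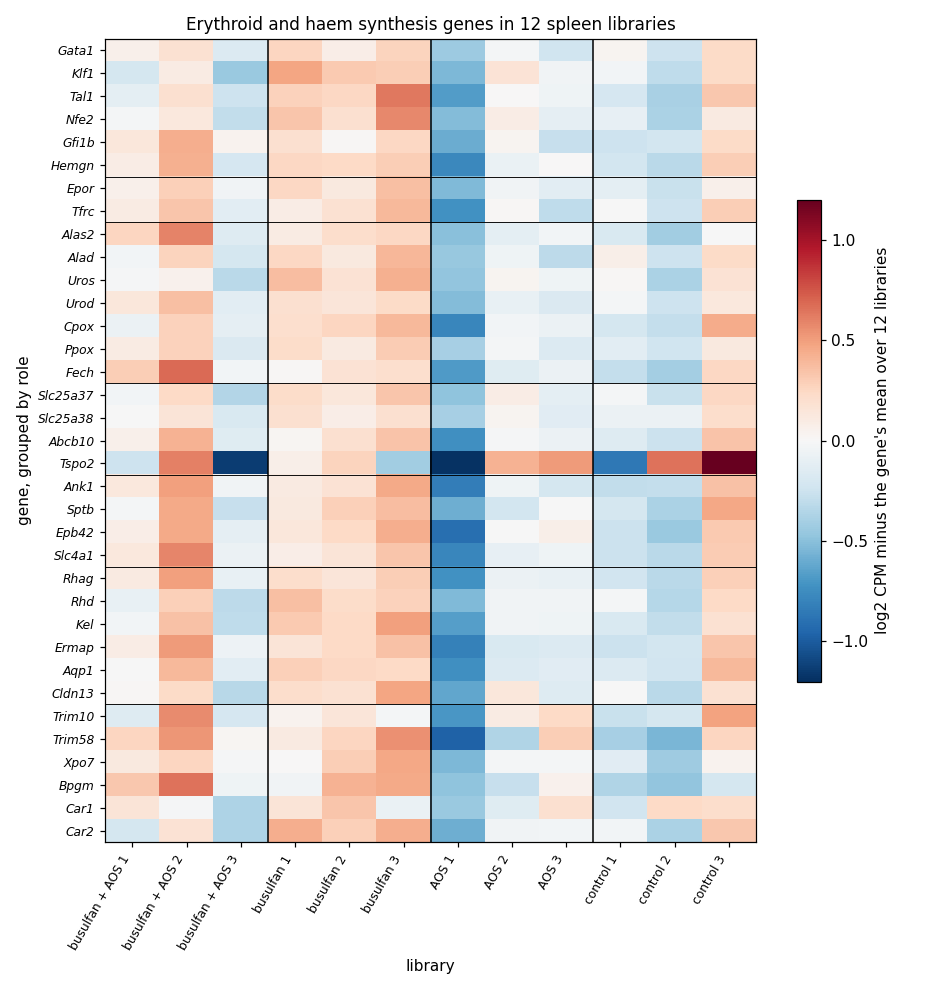
Level of each of the 35 members (rows, by role) in each of the 12 libraries (columns), as log2 CPM minus the gene's mean over all libraries. AOS 1 is blue for every gene, busulfan 3 and busulfan + AOS 2 are the highest for 13 genes each, and Tspo2 has a pattern of its own.

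Busulfan was first compared over all libraries, 6 with the drug against 6 without, averaged over AOS. Of 35 members, 1 passed the test of edgeR's quasi-likelihood fit at an adjusted p under 0.05, in the direction of higher with busulfan, against 3.1% of all genes called higher and 5.13% called lower. That gene was Bpgm, which makes 2,3-bisphosphoglycerate, the metabolite that lowers the oxygen affinity of haemoglobin. Log2 fold changes were above 0 for 34 of 35 members, against 49.2% of all genes, and their median was 0.31 over members (1.24-fold) against 0.00 over all genes. An unadjusted p under 0.05 with a higher level was reached by 19 members, or 54.3%, against 13.9% of all genes. No member had all 6 libraries with busulfan above all 6 without it, which 0.975% of all genes did. Without control 3, edgeR called 11 members, Bpgm among them, and 2051 of all genes, against 1241 of all genes with all 12 libraries. Without busulfan + AOS 3 it called 2 members (Bpgm and Alas2) and 630 of all genes. With both control 1 and AOS 2 left out, it called 0 members and 9 of all genes. It also called 0 members without these 2 libraries in each of the 6 other contrasts.

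Bpgm (chr6:34476356-34505136, GRCm38) stood at 346, 434 and 267 CPM in busulfan + AOS and at 267, 368 and 377 CPM in busulfan. It stood at 197, 228 and 285 CPM in AOS and at 215, 198 and 238 CPM in controls. AOS 3 lay above the lowest library of each busulfan group, and the other 5 libraries without busulfan lay below all 6 with it. Bpgm thus rose by 0.60 ± 0.14 (SE) on the log2 scale, or 1.51-fold, with an edgeR adjusted p of 0.0301. It was 0.64 ± 0.19 for busulfan against control and 0.56 ± 0.19 for busulfan + AOS against AOS, with edgeR adjusted p of 0.115 and 0.103. The call was lost in 7 of the 12 fits that left out 1 library each (control 1 or 2, AOS 1 or 2, busulfan 3, or busulfan + AOS 1 or 2), and over all 12 fits the value ran from 0.505 to 0.685 and the edgeR adjusted p from 0.0268 to 0.0776. Without control 1 and AOS 2 the value was 0.58 with an edgeR adjusted p of 0.104.

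**Figure D2:**
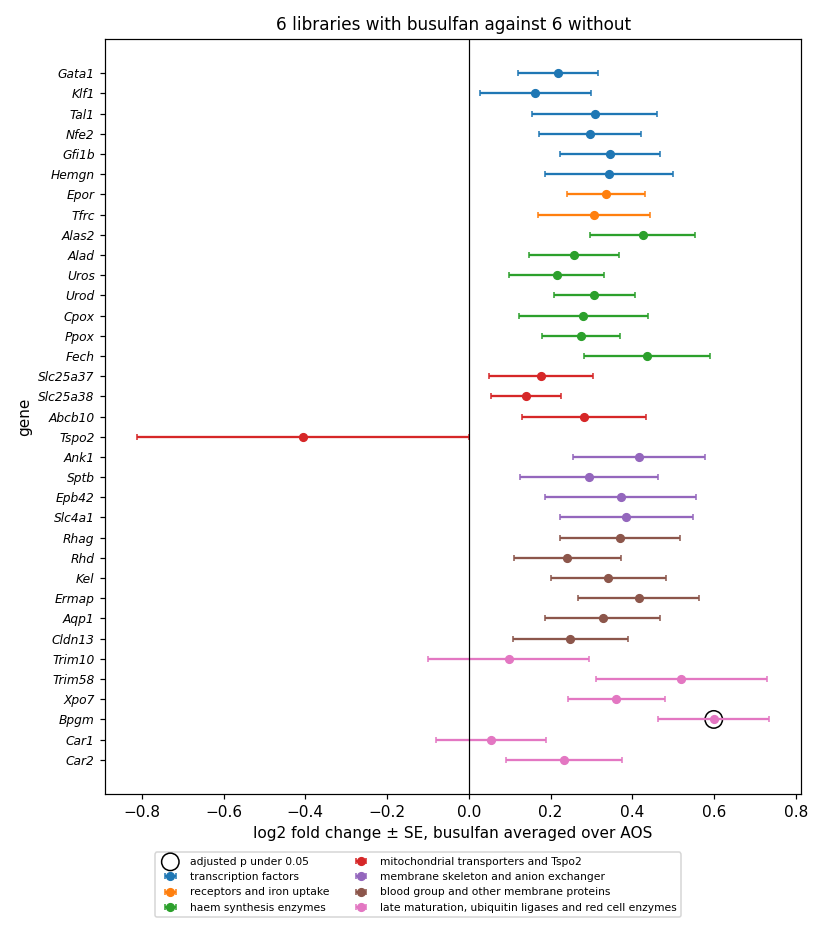
Log2 fold change ± SE of each member for the 6 libraries with busulfan against the 6 without (x axis), with genes on the y axis and colours for roles. All points but Tspo2 lie right of 0, and the circled Bpgm is the single gene past the threshold.

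Among the transcription factors, log2 fold changes for busulfan averaged over AOS ran from 0.16 ± 0.14 for Klf1 to 0.34 ± 0.12 for Gfi1b. Gata1, the master factor of the lineage, stood at 129, 141 and 110 CPM in busulfan + AOS, 148, 131 and 149 CPM in busulfan, 91.7, 122 and 105 CPM in AOS, and 127, 104 and 145 CPM in controls. Its groups overlapped throughout, with a log2 fold change of 0.22 ± 0.10 and an edgeR adjusted p of 0.161. The edgeR adjusted p was 0.206 for Tal1, the partner of Gata1 on DNA, 0.14 for Nfe2, a subunit of the factor that binds globin control regions, and 0.172 for Hemgn, a nuclear protein of erythroid cells.

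Of the receptors, Epor (chr9:21958897-21963576) came closest to the threshold. It stood at 76.3, 89.3 and 71.0 CPM in busulfan + AOS and 87.1, 79.8 and 93.9 CPM in busulfan, against 50.7, 71.0 and 67.2 CPM in AOS and 67.4, 61.1 and 76.5 CPM in controls. Control 3 was the only library without busulfan that lay above the lowest library with it. Epor gave a log2 fold change of 0.34 ± 0.10 with an edgeR adjusted p of 0.053, and DESeq2 called it with an adjusted p of 0.0166. Tfrc, the transferrin receptor that brings in iron, gave 0.31 ± 0.14 with an edgeR adjusted p of 0.161.

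All 7 haem enzymes had a log2 fold change above 0, from 0.22 ± 0.12 for Uros to 0.44 ± 0.15 for Fech, and none passed the test. Alas2 (chrX:150547417-150570622), the rate-limiting first enzyme in red cells, stood at 1471, 1859 and 1102 CPM in busulfan + AOS and 1311, 1422 and 1459 CPM in busulfan. It stood at 868, 1129 and 1202 CPM in AOS and 1078, 920 and 1223 CPM in controls. All 3 busulfan libraries lay above all 6 libraries without the drug, whereas busulfan + AOS 3 lay within their range. Its log2 fold change was 0.43 ± 0.13 with an edgeR adjusted p of 0.0619. Fech, which completes haem, stood at 829, 1082 and 662 CPM in busulfan + AOS, 682, 761 and 776 CPM in busulfan, 420, 611 and 642 CPM in AOS, and 554, 510 and 802 CPM in controls. Without control 3, whose 802 CPM is the highest Fech value among libraries without busulfan, its edgeR adjusted p was 0.0359, against 0.0902 with all 12 libraries.

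The 3 mitochondrial transporters and Tspo2, listed with them, had a median log2 fold change of 0.16, the lowest of the 7 roles. Slc25a37 gave 0.18 ± 0.13, Slc25a38, a glycine carrier, 0.14 ± 0.09, and Abcb10, a transporter that stabilises mitoferrin, 0.28 ± 0.15. Tspo2 was the 1 member below 0, at -0.41 ± 0.41 with an edgeR adjusted p of 0.539. Its libraries stood at 19.2, 34.5 and 10.3 CPM in busulfan + AOS, 23.8, 27.3 and 17 CPM in busulfan, 9.98, 30.3 and 32.4 CPM in AOS, and 12.5, 35.7 and 56.6 CPM in controls. The highest library held 5.67 times the lowest for Tspo2, against 1.53 times for Slc25a38 and 2.87 times for Trim58, the ends of the range of the other 34 members.

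The 4 membrane skeleton genes had the highest median of the roles, 0.38, with 0.42 ± 0.16 for Ank1 (ankyrin, which ties the skeleton to band 3), 0.39 ± 0.16 for Slc4a1, 0.37 ± 0.19 for Epb42 and 0.29 ± 0.17 for Sptb (beta spectrin). Slc4a1 stood at 2505, 3453 and 2185 CPM in busulfan + AOS, 2433, 2557 and 2886 CPM in busulfan, 1338, 2144 and 2215 CPM in AOS, and 1926, 1837 and 2838 CPM in controls. Control 3 and AOS 3 lay within the range of the libraries with busulfan, and the edgeR adjusted p was 0.143. Of the surface proteins, Ermap, the carrier of the Scianna blood group in humans, gave 0.42 ± 0.15 with an edgeR adjusted p of 0.0932, and the rest ran from 0.24 ± 0.13 for Rhd to 0.37 ± 0.15 for Rhag. Of the late genes, Trim58 gave 0.52 ± 0.21 and Xpo7, a nuclear exporter needed for nuclear maturation, 0.36 ± 0.12, with edgeR adjusted p of 0.127 and 0.0754. Trim10 gave 0.10 ± 0.20, Car1 0.05 ± 0.14 and Car2 0.23 ± 0.14.

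Without AOS, busulfan was set against no treatment. No member was called by edgeR, against 0.471% of all genes, while DESeq2 called Bpgm among 881 genes in all. The log2 fold change was above 0 for 34 members, against 48.7% of all genes, with a median of 0.28, and 5 members had an unadjusted p under 0.05 (Nfe2, Epor, Uros, Xpo7 and Bpgm), 14.3% against 9.1% of all genes with a higher level. In 8 members all busulfan libraries lay above all controls, 22.9% against 11% of all genes. These were Klf1, Nfe2, Epor, Alas2, Urod, Kel, Cldn13 and Bpgm. Cldn13 was all but tied, at 173.6 CPM in both busulfan 2 and control 3. Urod was close, at 193 and 191.2 CPM in the same libraries. Nfe2 stood at 182, 165 and 215 CPM in busulfan and at 135, 111 and 156 CPM in controls, a log2 fold change of 0.49 ± 0.18 with an edgeR adjusted p of 0.162. Leaving out control 3 put the median of the members at 0.49, and over all fits that left out a library it was 0.18 to 0.49.

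With AOS in both groups, busulfan + AOS was set against AOS. No member was called by edgeR, against 5.81% of all genes, while DESeq2 called Bpgm and Fech among 1750 genes in all. Of the members, 33 had a log2 fold change above 0, against 50.1% of all genes, with a median of 0.30, and 9 members, 25.7%, had an unadjusted p under 0.05 with a higher level, against 12.3% of all genes. In 7 members all busulfan + AOS libraries lay above all AOS libraries, 20% against 14.6% of all genes. These were Gfi1b, Epor, Fech, Ank1, Ermap, Aqp1, the water channel, and Xpo7. Epor was all but tied, at 71.04 CPM in busulfan + AOS 3 and 71 CPM in AOS 2. So was Gfi1b, at 67.71 and 67.36 CPM in the same libraries. Xpo7 and Aqp1 were as close, at 550.1 and 618.5 CPM in busulfan + AOS 3 and 548.5 and 614.7 CPM in AOS 3. Fech gave 0.62 ± 0.22 with an edgeR adjusted p of 0.108, Ermap 0.55 ± 0.21 and Ank1 0.53 ± 0.23, while Klf1 gave -0.06 ± 0.19. Without AOS 1, the library lowest for every member, the median of the members was 0.16.

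AOS alone was set against no treatment. No member was called by edgeR or DESeq2 and none had an unadjusted p under 0.05, against 0% called and 5.93% at the unadjusted p of all genes by edgeR. A log2 fold change above 0 was found for 1 member (Bpgm, 0.13 ± 0.19), against 48.8% of all genes, and the median was -0.19. That median rested on single libraries, being -0.01 without AOS 1 and 0.00 without control 3. No member had groups that did not overlap, against 5.63% of all genes higher and 5.19% lower.

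Busulfan + AOS against busulfan asks what AOS altered after the drug. No member was called by edgeR or DESeq2, against 3.02% of all genes by edgeR. The log2 fold change was above 0 for 6 members, against 50.7% of all genes, with a median of -0.14 that ran from -0.25 to -0.03 when a library was left out. An unadjusted p under 0.05 with a lower level was reached by 4 members, Klf1, Nfe2, Uros and Car2, or 11.4% against 10.5% of all genes. The busulfan + AOS libraries lay below all busulfan libraries in 5 members, Klf1, Tal1, Nfe2, Uros and Car2, or 14.3% against 12.9% of all genes. Klf1 (chr8:84901982-84905291), a factor that activates the adult beta globin gene, stood at 177, 220.4 and 150.3 CPM in busulfan + AOS, against 286, 256 and 251 CPM in busulfan. Its log2 fold change was -0.53 ± 0.19 with an edgeR adjusted p of 0.147. Car2 stood at 1828, 2380 and 1631 CPM in busulfan + AOS, against 2860, 2575 and 2856 CPM in busulfan, at -0.51 ± 0.20 with an edgeR adjusted p of 0.182. Uros, at 105, 111 and 85.1 CPM in busulfan + AOS against 137, 120.0 and 143 CPM in busulfan, gave -0.41 ± 0.16 with the same edgeR adjusted p of 0.182. Fech gave 0.21 ± 0.22, Alas2 0.08 ± 0.18 and Bpgm 0.05 ± 0.19.

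Busulfan + AOS against control gave no member called by edgeR, against 0.875% of all genes, while DESeq2 called Bpgm among 750 genes in all. A positive log2 fold change was found for 27 members, against 49.8% of all genes, with a median of 0.08 that ran from -0.043 without busulfan + AOS 2 to 0.302 without control 3, and 2 members (Alas2 and Bpgm), or 5.71%, had an unadjusted p under 0.05 with a higher level, against 7.85% of all genes. Bpgm, at 0.69 ± 0.19 with an edgeR adjusted p of 0.108, was the 1 member whose libraries all lay above the controls, or 2.86% against 10.8% of all genes. The interaction, which asks whether the difference made by busulfan depended on AOS, called no member by edgeR or DESeq2, against 0.484% of all genes by edgeR, and no member had an unadjusted p under 0.05, against 16.6% of all genes. The largest interaction estimates in size were -0.44 ± 0.27 for Klf1, 0.44 ± 0.81 for Tspo2, -0.38 ± 0.25 for Nfe2 and 0.37 ± 0.31 for Fech.

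**Figure D3:**
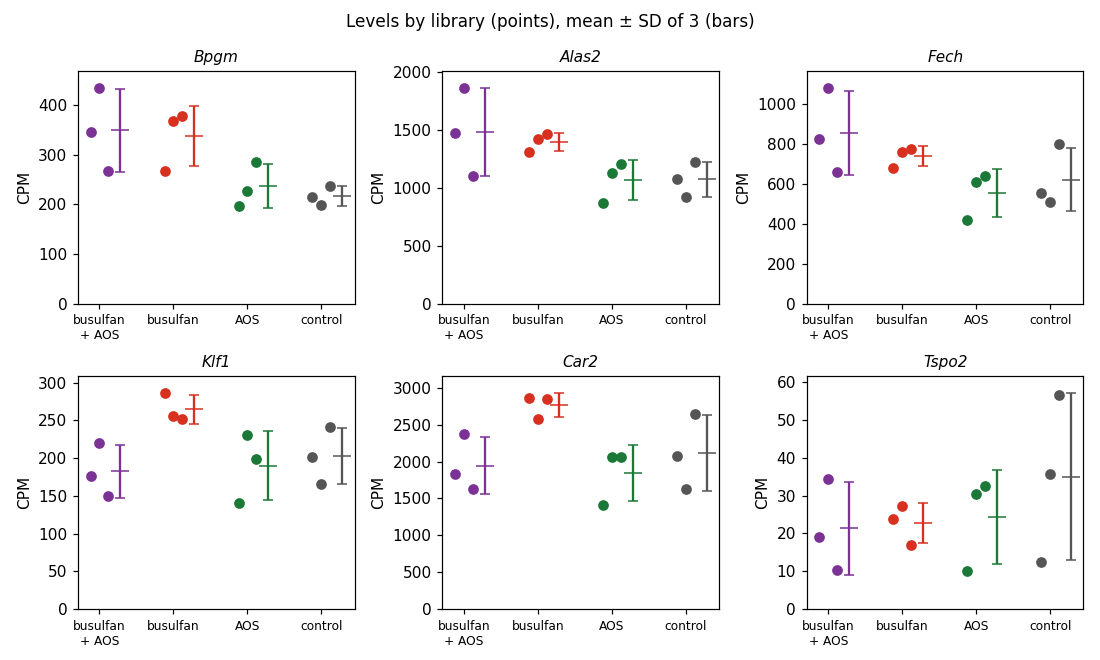
CPM of 6 members in each library (points, 3 per group) with mean ± SD (bars), from busulfan + AOS on the left to control on the right. Klf1 and Car2 are highest in busulfan and lie lower in all 3 busulfan + AOS libraries, whereas Bpgm, Alas2 and Fech reach their highest value in busulfan + AOS 2.

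Because the members moved together, each was also set against the others in its own library, as log2 CPM minus the median of the 35 members. This scale was chosen after the values were seen, so its results carry no test. In busulfan + AOS against busulfan, 9 members lay higher in all 3 libraries on this scale, namely Alas2, Fech, Abcb10, Ank1, Epb42, Slc4a1, Rhag, Ermap and Bpgm. The 3 members that lay lower were Klf1, Tal1 and Car2. Tal1 was all but tied, at -0.013 in busulfan + AOS 3 and 0 in busulfan 2, control 1 and control 2. Where it stood at 0, Tal1 was itself the median. Klf1 lay at -0.50, -0.63 and -0.55 in busulfan + AOS and at 0.00, -0.27 and -0.45 in busulfan on this log2 scale, and Fech at 1.58 to 1.72 in busulfan + AOS and 1.18 to 1.30 in busulfan. Against AOS, busulfan + AOS had 8 members higher and 2 lower (Klf1 and Car2), and against control 7 higher and 3 lower (Klf1, Tal1 and Car2). Busulfan against control had 1 member higher (Trim58) and 3 lower (Tfrc, Abcb10 and Trim10). Trim58 was close, at -3.775 in busulfan 1 and -3.795 in control 3, as was Tfrc, at 1.427 in busulfan 3 and 1.431 in control 3. Over all genes, the shares that lay higher and lower on this scale were 13.1% and 1.21% for busulfan + AOS against busulfan, 1.43% and 10.9% against AOS, 1.68% and 2.97% against control, and 0.55% and 17.3% for busulfan against control. These shares follow from centring on the members' own median, so the members' counts cannot be read against them.

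Ratios of CPM within a library, which do not depend on scaling, were taken for 5 pairs of members, and busulfan + AOS stood apart in 3 of them. Alas2 per Klf1 was 8.32, 8.44 and 7.33 in busulfan + AOS and 4.58, 5.56 and 5.80 in busulfan. It was 6.16, 4.91 and 6.04 in AOS and 5.36, 5.53 and 5.07 in controls. All 3 busulfan + AOS libraries lay above the other 9, which overlapped. Fech per Uros was 7.86, 9.77 and 7.78 in busulfan + AOS, 4.96, 6.34 and 5.42 in busulfan, 5.47, 5.60 and 6.23 in AOS, and 5.14, 6.21 and 6.67 in controls. Bpgm per Car2 was 0.189, 0.182 and 0.163 in busulfan + AOS, 0.0935, 0.143 and 0.132 in busulfan, 0.140, 0.111 and 0.138 in AOS, and 0.104, 0.122 and 0.0897 in controls. In the other pairs busulfan + AOS overlapped at least 1 other group. Alas2 per Alad was 3.20, 3.29 and 2.72 in busulfan + AOS, 2.35, 2.79 and 2.36 in busulfan, 2.54, 2.5 and 3.18 in AOS, and 2.19, 2.32 and 2.22 in controls. In this pair the controls lay below the other 9 libraries. Fech per Cpox was 2.38, 2.46 and 1.96 in busulfan + AOS, against 1.62 to 1.98 in the other 9 libraries, with AOS 1 above busulfan + AOS 3. All 5 pairs were picked after the values were seen, so any separation is a description. As given above, the interaction called no single member by edgeR or DESeq2, the genes of these pairs included.

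**Figure D4:**
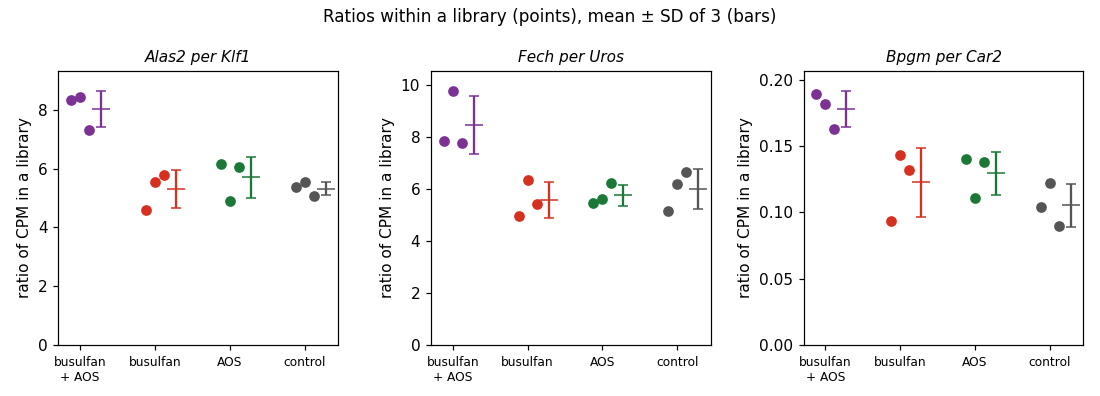
Ratio of CPM of a pair of members within each library (points, 3 per group) with mean ± SD (bars), for Alas2 per Klf1, Fech per Uros and Bpgm per Car2. In each panel the 3 busulfan + AOS libraries lie above the other 9, with Alas2 per Klf1 at 7.33 to 8.44 in them.

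A list of 84 other erythroid, haem and iron genes, none of them members, had a median log2 fold change of 0.22 for busulfan averaged over AOS, where edgeR called 8 higher and 3 lower, or 9.52% and 3.57% of the list against the 3.1% and 5.13% of all genes given above. Higher were Myb, a factor of dividing progenitors (75.7 ± 4.11 CPM in busulfan + AOS and 86.2 ± 14.7 CPM in busulfan, against 54.4 ± 4.39 CPM in AOS and 59.6 ± 8.95 CPM in controls, SD), Blvra, which reduces the biliverdin left from haem breakdown, Tfr2, a sensor of transferrin, and Abcb6, a porphyrin transporter. The other 4 were E2f2, a cell cycle factor of erythroblasts, Pim1, a kinase induced by cytokines, and Bnip3l and Ube2o, which clear mitochondria and ribosomes from maturing red cells. Lower were Bcl11a, the repressor of embryonic globins that B cells also express, Slc2a1, a glucose carrier, and Add3, gamma adducin. The log2 fold change was 0.50 ± 0.09 for Myb with an edgeR adjusted p of 0.0195, 0.35 ± 0.07 for Blvra with 0.0245, 0.50 ± 0.11 for Tfr2 with 0.0274 and -0.36 ± 0.08 for Bcl11a with 0.0263. In busulfan + AOS against AOS, edgeR called Blvra, Tfr2 and E2f2 higher, and Ncoa4 and Btg2, a brake on cell division, lower, which is 5.95% of the list against 5.81% of all genes. In the other 4 pairwise contrasts of the groups, edgeR called 2 of these genes, both in busulfan + AOS against busulfan, or 2.38% against 3.02% of all genes.

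The first of these was Ncoa4, the receptor that delivers ferritin to the lysosome and so frees iron for haem. It averaged 229.9 ± 30.9 CPM in busulfan + AOS and 459 ± 31.8 CPM in busulfan, against 366 ± 62.6 CPM in AOS and 364 ± 49.5 CPM in controls (SD, n = 3 each). All 3 busulfan + AOS libraries lay below all 3 of busulfan, with a log2 fold change of -0.997 ± 0.143 and an edgeR adjusted p of 0.00988. The other was Slc25a28, the mitoferrin of tissues outside the red cell lineage, at 45.2 ± 1.49 CPM in busulfan + AOS and 35.3 ± 0.571 CPM in busulfan (SD), with a log2 fold change of 0.36 ± 0.07 and an edgeR adjusted p of 0.0265. The interaction of Ncoa4 was -1.003 ± 0.200 with an edgeR adjusted p of 0.0591.

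Transcripts of other cell types and of cell division were set beside the members. A list of 20 mitosis genes summed to 4345, 5586 and 3742 CPM in busulfan + AOS, 3964, 4432 and 4970 CPM in busulfan, 2445, 3524 and 3450 CPM in AOS, and 3185, 3093 and 4842 CPM in controls. As for the members, AOS 1 was the lowest library and busulfan + AOS 2 the highest. The 10 B cell genes summed to 3315, 2645 and 2955 CPM in busulfan + AOS, 2713, 3200 and 2269 CPM in busulfan, 4010, 3753 and 4246 CPM in AOS, and 3933, 3918 and 3047 CPM in controls, and 7 of the 10 were called lower with busulfan averaged over AOS by edgeR. Transcripts of 12 haemoglobin genes took 8.25, 9.79 and 6.01% of counts in busulfan + AOS, 9, 8.66 and 8.43% in busulfan, 6.66, 6.87 and 7.40% in AOS, and 7.45, 5.56 and 6.56% in controls. Megakaryocytes share Gata1, Tal1, Nfe2 and Gfi1b with red cells, and 10 of their genes summed to 569 to 1208 CPM, highest in busulfan 3. The median log2 fold change of these 10 was 0.31 for busulfan against control and 0.02 for busulfan + AOS against AOS. It was -0.32 for busulfan + AOS against busulfan, and edgeR called none of the 10 in these contrasts. Mast cells and basophils share Gata1, and 9 of their genes summed to 51.4, 25.2 and 87.1 CPM in busulfan, against 16.6 to 26.3 CPM in the other 9 libraries. Red pulp macrophages take up old red cells and break down their haem, and 9 of their genes summed to 1292, 1847 and 1841 CPM in busulfan + AOS, 1635, 1498 and 1503 CPM in busulfan, 1137, 1082 and 1742 CPM in AOS, and 1119, 1107 and 1391 CPM in controls. Their median log2 fold change for busulfan averaged over AOS was 0.43, with 1 of the 9 called higher by edgeR. Eosinophils, which also use Gata1, had 5 genes that summed to 13.8, 22.6 and 22.7 CPM in busulfan + AOS and 37.7, 19.5 and 61.9 CPM in busulfan, against 9.14 to 13.0 CPM in the 6 libraries without the drug, and edgeR called 3 of the 5 higher for busulfan averaged over AOS. Aqp1 is also a gene of blood vessels, and 10 endothelial genes summed to 501 to 607 CPM. Myb, named above, is also in a list of 10 stem and progenitor genes. The median log2 fold change of that list for busulfan averaged over AOS was -0.04, and edgeR called Myb alone of the 10. The part of these cells in the differences among members was not tested.

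**Figure D5:**
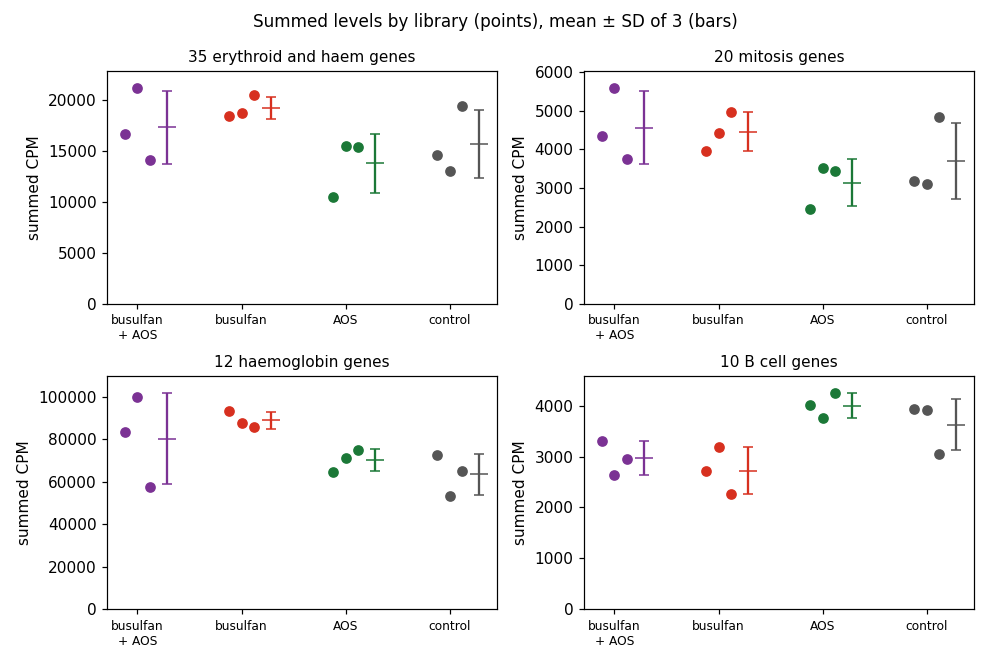
Summed CPM of 4 gene lists in each library (points, 3 per group) with mean ± SD (bars). The 35 members and the 20 mitosis genes are both lowest in AOS 1 and highest in busulfan + AOS 2, while the 10 B cell genes are lowest in busulfan 3 at 2269 CPM.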

How the data were processed

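Spleen RNA was sequenced in 12 libraries, 3 in each of 4 groups as the labels and the design text give them. The table holds expected counts per gene, deposited by the authors under names that call them read counts (75.7% of values are whole), and a normalised value read as FPKM as deposited, since counts divided by it tracked library totals with a deviation of at most 0.34% over 1227 genes, against 7.67% for a TPM scale. Per the submitters' processing notes, reads were placed on mm10. The aligner, the counter, the annotation and the use of strand are not given in the sources, so reads of overlapping genes and close copies cannot be traced. Gene coordinates are RefSeq's on GRCm38.p6, 1-based. A further 8 columns of group averages were not used.

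Expected counts were rounded and tested with edgeR 4.0.16 (R 4.3.3): filterByExpr (15079 genes), TMM (factors 0.965 to 1.04), a mean per group over all 12 libraries, glmQLFit and glmQLFTest, two-sided, with Benjamini-Hochberg adjustment over all genes and calls at 0.05. There were 8 residual and 2.97 prior degrees of freedom, and the common biological coefficient of variation was 18.9%. Levels are CPM on TMM-scaled totals. A count of 0 allows up to 3 counts, or 0.185 to 0.2 CPM, counting error only. The SE is the log2 fold change divided by the square root of F. The code was tested on simulated data. Libraries of 1 group differed by 15.9 to 72.7 times sampling noise over 12 pairs (chi-square per degree of freedom), so none was a copy. Groups share replicate numbers, but deviations of same-numbered libraries correlated from -0.09 to 0.28 over 18 pairs, so no pairing was taken.

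Alternatives were DESeq2 1.42.0, RLE scaling, haemoglobin genes left out, other filters, the groups of a contrast alone, a replicate block, limma 3.58.1 on log2(FPKM + 1) and log2(FPKM + 0.1), and libraries left out. The members and lists were chosen with earlier results of these data known. All members are named, and of the 84 other genes those called in any contrast and the 4 with the smallest p for busulfan averaged over AOS. Tables and figures used pandas 2.3.3, numpy 2.4.6 and matplotlib 3.10.9 in Python 3.11.15.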

Additional observations from a re-analysis of the deposited data

How the results depend on the processing

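For busulfan averaged over AOS, the count of members called was 1 in edgeR and 8 in DESeq2 (Alas2, Bpgm, Epor, Ermap, Fech, Ppox, Urod and Xpo7). It was 2 in limma on log2(FPKM + 1) and 2 on log2(FPKM + 0.1) (Bpgm and Epor), 0 without control 1 and AOS 2, and 0 to 11 when 1 library was left out. The 11 (Alas2, Ank1, Aqp1, Bpgm, Epor, Ermap, Fech, Gfi1b, Ppox, Rhag and Urod) came without control 3. DESeq2 gave 1 member for busulfan against control, 2 for busulfan + AOS against AOS and 1 for busulfan + AOS against control, where edgeR gave 0. Of all genes, DESeq2 called 881, 1750 and 750 in these contrasts, where edgeR called 71, 876 and 132. The cause was not tested. A replicate block left the count at 1 for the averaged contrast (Bpgm) and 0 elsewhere, and 6 of 12 libraries correlated best with their own number. All genes called for the averaged contrast numbered 1241 in edgeR, 2352 in DESeq2, 883 in limma on log2(FPKM + 1) and 897 on log2(FPKM + 0.1). In edgeR they numbered 2051 without control 3, and 9 without control 1 and AOS 2. Among single members, Car1 turned to -0.023 without control 1 and AOS 2 and ran from -0.015 to 0.151 when 1 library was left out, and Trim10 ran from -0.049 to 0.248. Over members and alternatives that left out no single library, 304 values kept direction and side of the threshold, 9 crossed it upwards, 1 downwards and 1 reversed. Fits of only the groups compared gave no value for the averaged contrast or the interaction. No alternative varied the depth, so its part in these values was not tested.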

Other observations

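Of the adult beta globin rows, Hbb-bs and Hbb-bt spread far more widely between libraries than the members did. Hbb-bs stood at 840, 14500 and 1270 CPM in busulfan + AOS and at 2.11, 1.54 and 1.52 CPM in busulfan, against 314, 9950 and 1150 CPM in AOS and 1340, 26.8 and 9360 CPM in controls. Hbb-bt followed it, at 245, 3970 and 374 CPM in busulfan + AOS and 2.43, 2.24 and 4.18 CPM in busulfan, against 102, 3040 and 318 CPM in AOS and 493, 14.8 and 3340 CPM in controls. These rows are near-identical in sequence, and how the counting shared reads between them is not given in the sources. The cause of their spread between libraries was not tested. Hbb-b1 stood at 25600, 18500 and 17700 CPM in busulfan + AOS and 28400, 28400 and 27400 CPM in busulfan, against 18100, 12000 and 23100 CPM in AOS and 20000, 16800 and 11100 CPM in controls. Hbb-b2 ranged from 2770 to 6310 CPM, and both were highest in busulfan, where Hbb-bs and Hbb-bt were lowest. Alpha globin Hba-a1 lay between 29800 and 54600 CPM in all 12 libraries.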
